A study of Homo sapiens with 6 samples.

Results

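The solute carrier (SLC) genes are the named families of membrane transporters that move nutrients, ions and metabolites across the plasma membrane and organelle membranes. The members here are all genes whose name in the authors' deposited comparison starts with SLC and a digit. They number 43 of the 1458 gene symbols in that comparison, listed by 65 of its 2122 probe sets. The study measured HCT116, a cell line from a human colon carcinoma, on Affymetrix whole-transcript arrays, with 3 arrays per group that the labels call biological replicates. Both groups were infected with a lentivirus for 48 h and selected with puromycin for 48 h in medium with 10% serum. The control virus carried a scrambled short hairpin RNA (shscrambled) and the other an shRNA against ERRα (shERRα), an orphan nuclear receptor encoded by ESRRA that acts on genes of energy metabolism. Nothing in the labels says whether the arrays of a group came from separate infections, so the spread between them may be partly technical, and an effect of the shRNA other than loss of ERRα cannot be told apart from it.

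Carrier families are grouped by sequence, and the members of a family often carry related substrates. SLC39 proteins bring zinc and related metals into the cytosol and SLC30 proteins take zinc out of it, SLC25 proteins carry metabolites across the inner mitochondrial membrane, and SLC7, SLC38 and SLC43 proteins carry amino acids. SLC27 proteins import and activate fatty acids and SLC44 proteins carry choline and related compounds. Carriers govern which substrates a cell takes up or exchanges, and some are known for supplying growing tumour cells.

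The members were chosen by their values: the deposited comparison keeps a probe set only where it differed 2-fold or more on these same arrays with a p, not adjusted, below 0.01. The values of the listed probe sets are therefore a description, and their fold is biased upward. Among the listed carrier probe sets the smallest fold was 2.00233 (SLC27A6). Some unlisted probe sets stand in an unbroken series of identifiers with a listed carrier one. Among these, the largest fold with a p under 0.01 was 1.99, in the series of SLC26A8. Of all probe sets used, 0.557% were listed as lower and 0.271% as higher. None of 256161 probe sets passed an adjusted p of 0.05 in limma (0% called), with 6962 higher and 11577 lower at an unadjusted p under 0.05. Each gene was also described by its run, the unbroken series of consecutive probe set identifiers around a listed one, because the array holds many probe sets per gene and only listed ones carry a name. The value of a run is the median of its probe sets on each array, in log2 units. In none of the 43 carrier runs did the deposited comparison name a second gene, but an unnamed probe set is not known to belong to the carrier. The unlisted probe sets come from the same arrays and the same contrast, so they are described and not tested.

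ESRRA was lower on every shERRα array, at 4.86, 5.10 and 5.28 log2 units with the scrambled shRNA against 2.29, 2.60 and 2.23 with shERRα over its listed probe sets. shERRα replicate 1 stood apart from the other arrays, with correlations across probe sets of 0.867 to 0.877 against 0.933 to 0.947 among the other 5. Array medians lay between 4.28 and 4.43 log2 units. Since only listed probe sets carry names, the identity of the cells could be checked against few markers: of 10 colon epithelium markers CDH1 was listed (lower), of 5 leukocyte markers ITGAM (higher), of 6 fibroblast and endothelial markers COL1A2 (lower), COL3A1 and KDR (both higher), and of 3 HEK293-type markers none. The part of these markers in the carrier results was not tested. In bulk RNA, fewer cells of a type and less RNA per cell cannot be told apart.

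Most of the carriers were listed as lower in shERRα. Of the 43 genes, 35 were lower and 8 higher, 81.4% lower beside 65% of all genes listed in 1 direction. The 65 probe sets hold 62 distinct ones, 54 lower and 8 higher: SLC25A6, whose gene lies in the region shared by both sex chromosomes, was listed by 2 probe sets with identical values and SLC44A4 by 3, and each was counted once. All 12 genes listed by 2 or more distinct probe sets were lower, led by the choline transporter SLC44A1 with 7 and by SLC39A9 and SLC44A3 with 3 each. The folds of the listed probe sets ran from 2.00233 to 7.58 among the lower genes and from 2.05 to 5.21 among the higher ones. The listed values of 17 carriers, 11 lower and 6 higher, averaged under 2.41 log2 units in at least 1 group, the level that 25% of all probe sets do not reach, here called near background, and their folds are not exact.

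Run medians were lower in shERRα for 32 of the 43 carriers (background 50.2% of 19182 runs), and the groups did not overlap in 22 runs that were lower and 3 that were higher (background 10.5% and 6.66%). In 6 runs the difference was 2-fold or more and lower (background 1.56%), in SLC25A30, SLC41A2, SLC7A2, SLC44A1, SLC27A2 and SLC27A6, and in 0 it was 2-fold higher (background 0.313%). Since the rule used this contrast, nothing is read from these shares. Of the 24 carriers whose run lay at 4 log2 units or more over the 6 arrays, all 24 were lower, with a median change of -0.85 log2 units and no overlap in 20. At that level the other 842 runs with a listed probe set were lower in 75.9% with a median of -0.52 and lower without overlap in 49.9%, and all 10458 runs were lower in 58.9% with a median of -0.08 and lower without overlap in 15.3%. Of the 19 carriers under 4 log2 units, 8 were lower, with a median change of 0.02, and all 8 carriers listed as higher were among them. At these low levels 50.1% of the other runs with a listed probe set were lower (median -0.00) and 39.9% of all runs (median 0.07), shares near that of the carriers on all 6 arrays. The directions of these dim carriers depended in part on shERRα replicate 1. Without it the run changes of SLC11A1, SLC13A5, SLC1A6, SLC22A25, SLC22A6, SLC26A3 and SLC26A9 turned lower and that of SLC2A14 higher. All 24 brighter carriers stayed lower, and 38 of the 43 runs were then lower (background 51.4%). The limit of 4 log2 units was chosen after the values were seen.

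**Figure D1:**
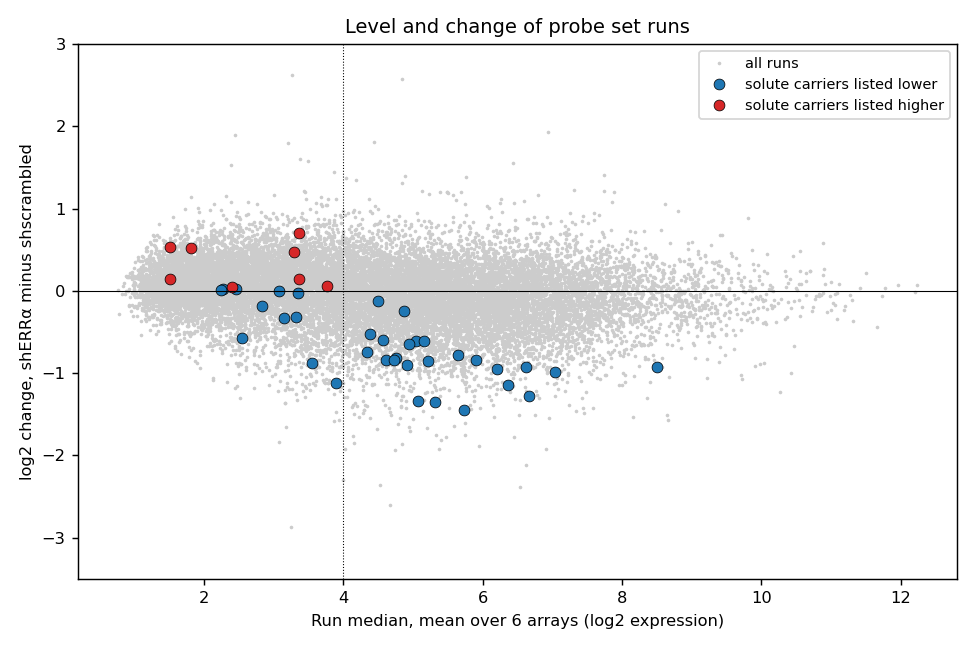
Each point is a run of consecutive probe sets; the horizontal axis gives its level over the 6 arrays and the vertical axis its log2 change, with carriers listed as lower in blue and as higher in red. To the right of the dotted line at 4 log2 units all 24 carriers lie below 0, and to its left they lie on both sides.

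The 586 probe sets of the carrier runs that the deposited comparison does not list were lower in 378 cases (64.5%, background 50.1% of all unlisted probe sets), with a median difference of -0.28 log2 units. Over all 648 probe sets of these runs the groups did not overlap in 196 that were lower (background 8.37%) and 25 that were higher (background 5.69%). Among the unlisted ones 111 were at least 2-fold lower (background 6.34%) and 24 at least 2-fold higher (background 3.47%). These runs were chosen for holding a listed probe set, mostly a lower one, while the backgrounds were not, so nothing is read from these shares. Of the 1455 other runs with a listed probe set, 65.0% had a lower run median. shERRα replicate 1 was the lowest of its group in 14 of the 35 runs listed as lower (background 38.4% of all runs), a share near that of all runs. Without it 38 of the 43 runs were lower (background 51.4%). The median over the carriers was then -0.61 log2 units, against -0.60 with it.

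**Figure D2:**
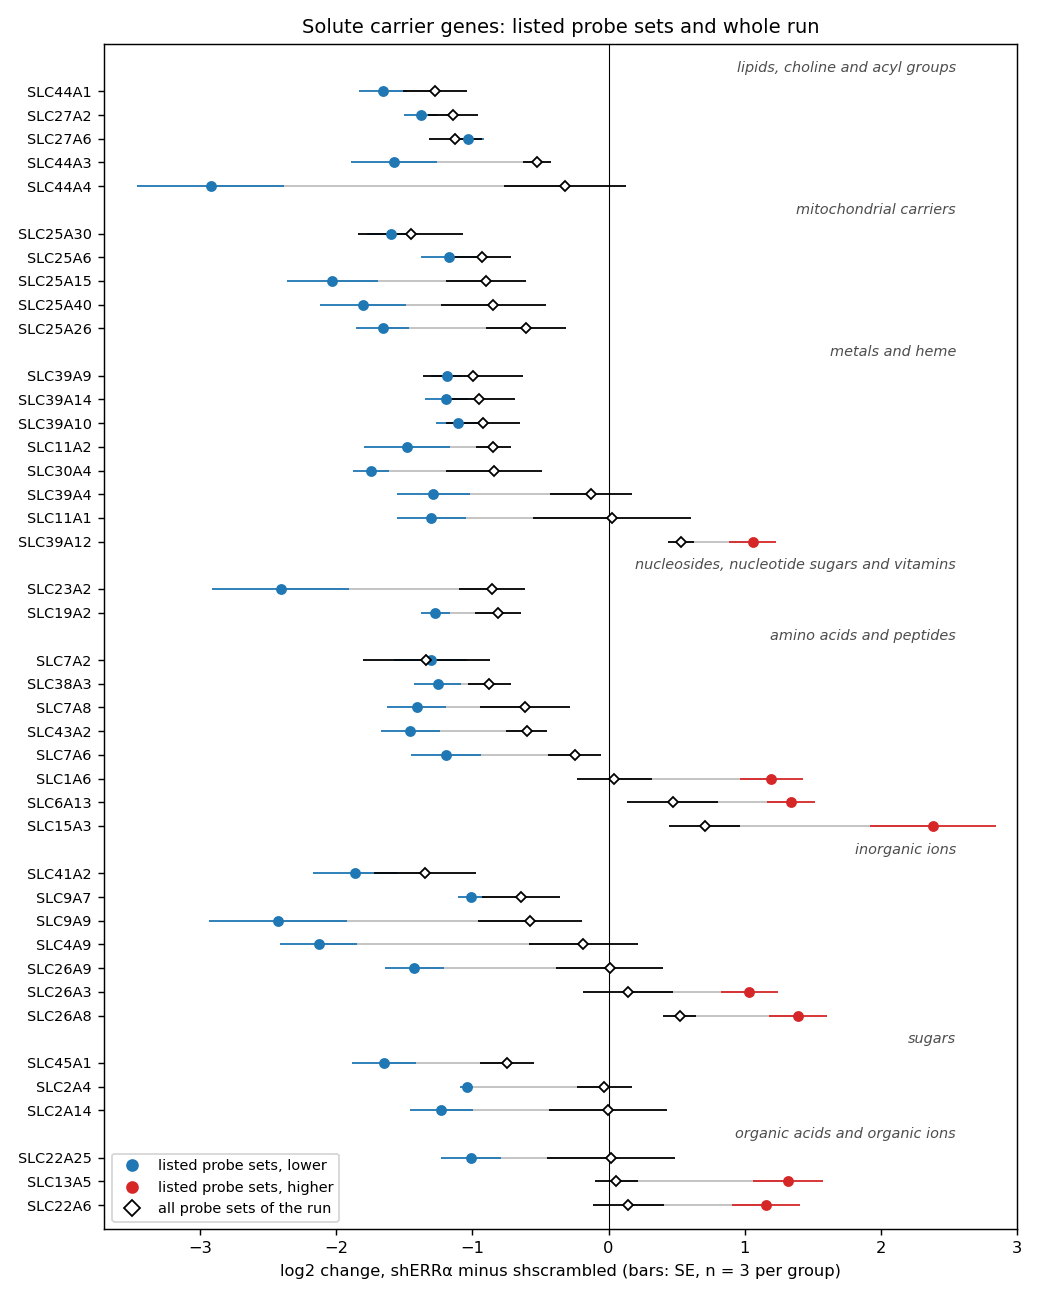
Log2 change of each carrier reported by name, shERRα minus shscrambled, from its listed probe sets (filled circles, blue lower and red higher) and from its whole run (open diamonds), grouped by substrate class; bars are SE with n = 3 per group. For SLC27A2, SLC27A6, SLC25A30, SLC39A9, SLC39A10 and SLC7A2 both values lie close together, while for SLC44A4, SLC4A9, SLC9A9 and SLC15A3 the run lies far nearer to 0.

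Carriers of choline and fatty acids were all listed as lower, 5 of 5, and their run medians were lower too, without overlap in 4. Lower runs without overlap made up 10.5% of all runs and 36.6% of the other runs with a listed probe set. The genes of each class are few and were chosen by this contrast, so nothing is read from the class counts. SLC44A1, the widely expressed choline transporter of plasma and mitochondrial membranes, had run medians of 7.40, 7.51 and 7.01 log2 units on the shscrambled arrays and 5.87, 6.39 and 5.84 on the shERRα arrays. All 3 shERRα arrays lay below all 3 control arrays, with a mean difference of -1.27 log2 units (SE 0.24), and its 7 listed probe sets were 3.15-fold lower. In 15 of the 19 probe sets of the run the groups did not overlap and shERRα was lower. The 2 probe sets with the lowest identifiers, at 6.20 and 9.72 log2 units in the controls, differed by 0.21 and 0.17 log2 units the other way, whereas the other 17 were all lower. SLC44A3, a relative of SLC44A1, was 2.98-fold lower at 3 listed probe sets and had run medians of 4.77, 4.52 and 4.64 with the scrambled shRNA against 4.01, 4.25 and 4.09 with shERRα, a change of -0.52 (SE 0.10). Its groups did not overlap.

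SLC44A4, which carries choline and thiamine pyrophosphate in epithelia, showed the largest listed fold among the lower carriers and little difference along the run. Its single distinct listed probe set read 4.13, 2.67 and 4.40 log2 units on the shscrambled arrays and 0.73, 0.98 and 0.73 on the shERRα arrays, 7.58-fold lower. The shERRα values lie near background, so the fold is not exact. The run of 21 probe sets gave 3.58, 3.23 and 3.64 with the scrambled shRNA against 3.73, 3.44 and 2.32 with shERRα, groups that overlap, and 8 of 20 unlisted probe sets were lower.

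Both fatty acid carriers were lower along their runs. SLC27A2, a fatty acid transporter that also activates very long chain fatty acids with coenzyme A, had run medians of 6.94, 6.79 and 7.07 log2 units on the shscrambled arrays and 5.48, 6.03 and 5.87 on the shERRα arrays, -1.14 log2 units on average (SE 0.18). Each of its 10 probe sets was lower in shERRα and none overlapped between the groups. SLC27A6, a fatty acid transporter best known from heart muscle, had run medians of 4.41, 4.80 and 4.15 with the scrambled shRNA against 3.30, 3.29 and 3.40 with shERRα, a change of -1.12 (SE 0.19), with 13 of 13 unlisted probe sets lower. Its listed probe sets, at 2.04-fold, differed by no more than the run.

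**Figure D3:**
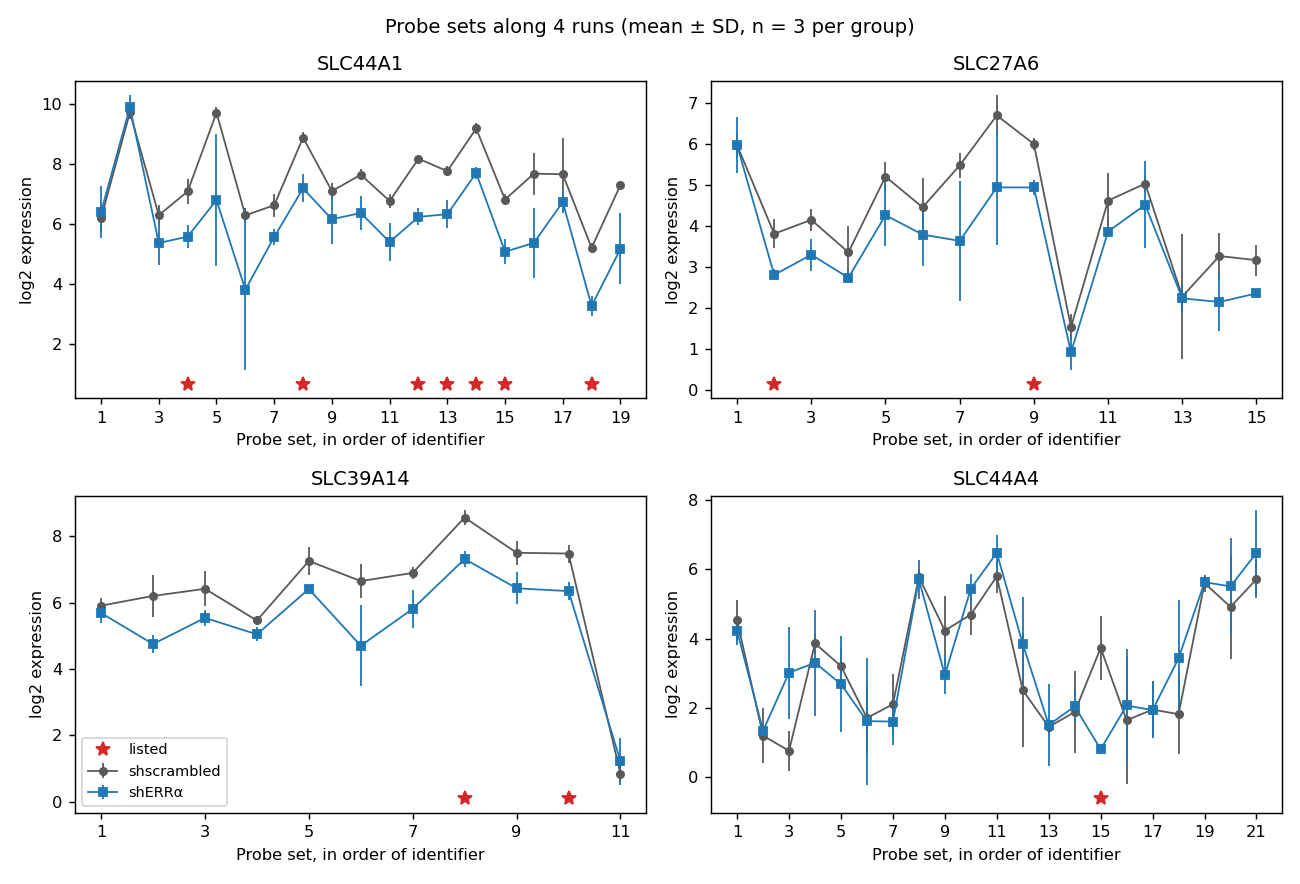
Mean ± SD (n = 3 per group) of each probe set in order of its identifier for 4 carriers, shscrambled in grey and shERRα in blue, with stars under the listed probe sets. SLC44A1, SLC27A6 and SLC39A14 were lower along most of the run, whereas SLC44A4 departed at 1 listed probe set and crossed elsewhere.

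Promoter sequences were at hand for 33 of the 43 carriers, in 51 windows of the RefSeq table for GRCh38.p14, each from 250 bases before a transcript start to 50 bases after it. They were searched on both strands for the extended half-site bound by ERRα, TNAAGGTCA, for its core AAGGTCA, which lies within it, and for the E-box CACGTG. The extended half-site was found in 0 of the 51 carrier windows and in 0.951% of all 35116 windows. The core was found in 1 carrier window, that of SLC26A3 (1.96%, beside 3.92% of all windows), and the E-box in 3, of SLC25A26, SLC41A2 and SLC7A8 (5.88%, beside 7.26%). A window without a match says only that these letters are not in it. The 250 bases before the start are shown for 2 of the carriers lower along the run, SLC44A1 and SLC27A2, for SLC25A26, which has 2 E-boxes starting 50 and 24 bases before its start, and for SLC26A3, with the core element 133 bases before its start. Matches are in capitals, and each sequence is given on the strand of its gene.
SLC44A1 (chr9:105244401-105244650, plus strand): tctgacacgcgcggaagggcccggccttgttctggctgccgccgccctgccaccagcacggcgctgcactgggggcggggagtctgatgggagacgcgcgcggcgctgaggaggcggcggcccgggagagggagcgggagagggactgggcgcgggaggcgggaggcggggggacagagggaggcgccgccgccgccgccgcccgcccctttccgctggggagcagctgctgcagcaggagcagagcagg
SLC27A2 (chr15:50181946-50182195, plus strand): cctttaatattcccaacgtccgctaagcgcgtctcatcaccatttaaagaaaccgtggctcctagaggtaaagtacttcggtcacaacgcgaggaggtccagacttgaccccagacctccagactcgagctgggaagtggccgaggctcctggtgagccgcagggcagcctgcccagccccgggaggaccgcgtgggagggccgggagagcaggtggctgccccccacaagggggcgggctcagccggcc
SLC25A26 (chr3:66220751-66221000, plus strand): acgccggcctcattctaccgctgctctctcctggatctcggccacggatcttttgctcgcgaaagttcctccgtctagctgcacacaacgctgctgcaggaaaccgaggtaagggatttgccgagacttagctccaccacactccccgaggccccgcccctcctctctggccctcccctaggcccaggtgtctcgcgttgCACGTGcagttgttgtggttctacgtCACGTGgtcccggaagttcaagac
SLC26A3 (chr7:107803224-107803473, minus strand): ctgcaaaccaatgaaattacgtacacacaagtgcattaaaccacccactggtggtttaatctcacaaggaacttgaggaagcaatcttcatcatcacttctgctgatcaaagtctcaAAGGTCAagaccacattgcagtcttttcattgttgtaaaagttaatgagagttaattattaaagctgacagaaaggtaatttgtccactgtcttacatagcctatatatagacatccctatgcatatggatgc
The sequences of SLC44A1 and SLC27A2 hold no capitals, as no motif searched was in them, and their GC content was 77.6% and 64.4%, against 37.6% for SLC26A3.

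Mitochondrial carriers were listed as lower in 5 of 5 cases, with run medians lower in all 5 and without overlap in 4 (background 10.5% of all runs, and 36.6% of the other runs with a listed probe set). SLC25A30, a carrier of the inner membrane first described in kidney, had run medians of 6.34, 6.70 and 6.32 log2 units on the shscrambled arrays and 4.28, 5.24 and 5.49 on the shERRα arrays. Its change of -1.45 log2 units (SE 0.39) was the largest of the 43 run changes, and the control arrays lay at least 0.83 log2 units above every shERRα array. Only 3 of its 11 probe sets fell outside the shared values described below, and the change over those 3 was -1.41. SLC25A6, which exchanges ADP for ATP, had the brightest run of the carriers, with 9.23, 8.99 and 8.66 with the scrambled shRNA against 8.30, 7.85 and 7.93 with shERRα, a change of -0.93 (SE 0.22). Each of its 7 probe sets was lower and none overlapped. SLC25A4 and SLC25A5 are close relatives, and cross-hybridisation with them was not tested. SLC25A15, the ornithine carrier of the urea cycle, was 4.08-fold lower at 1 listed probe set (5.10, 5.52 and 4.56 with the scrambled shRNA against 3.07, 2.70 and 3.33 with shERRα), and its run differed by -0.90 (SE 0.29), with 9 of 10 unlisted probe sets lower. SLC25A40, a mitochondrial glutathione carrier, was 3.49-fold lower at the probe set listed, and its run differed by -0.85 (SE 0.39). SLC25A26, which brings S-adenosylmethionine into mitochondria, was 3.16-fold lower, but its run medians overlapped between the groups at 5.03, 5.66 and 5.34 with the scrambled shRNA against 4.29, 4.89 and 5.04 with shERRα.

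Of the carriers of zinc, iron and manganese 7 of 8 were listed as lower. The zinc importers SLC39A9, SLC39A10 and SLC39A14 were lower by similar amounts. SLC39A9, a zinc importer of the Golgi and plasma membrane, had run medians of 7.60, 7.62 and 7.39 log2 units on the shscrambled arrays and 5.84, 6.77 and 7.02 on the shERRα arrays (change -0.99, SE 0.37). Its 9 probe sets were all lower without overlap, 3 of them listed. SLC39A10, a plasma membrane importer, had run medians of 7.42, 7.14 and 6.68 with the scrambled shRNA against 5.84, 6.33 and 6.31 with shERRα (change -0.92, SE 0.27). SLC39A14, which also imports iron and manganese, had 6.33, 6.60 and 7.10 with the scrambled shRNA against 6.02, 5.64 and 5.51 with shERRα (change -0.95, SE 0.27). No shERRα array reached the control range for any of the 3 genes. For SLC39A9 shERRα replicate 1 was the lowest, with a run median 0.93 log2 units under that of replicate 2.

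SLC30A4, which moves zinc from the cytosol into vesicles, was 3.34-fold lower at 1 listed probe set, with 6.71, 6.59 and 6.59 log2 units on the shscrambled arrays and 4.80, 4.73 and 5.13 on the shERRα arrays. Its run differed by -0.84 (SE 0.35), and 8 of 10 unlisted probe sets were lower. SLC11A2, the proton-coupled importer of ferrous iron, was 2.78-fold lower at a listed probe set near background. Its run read 6.20, 6.58 and 6.21 with the scrambled shRNA against 5.46, 5.51 and 5.48 with shERRα, a change of -0.85 (SE 0.13) without overlap, and 17 of 19 unlisted probe sets lower. SLC39A4, the zinc importer of intestinal absorption, and SLC11A1, the metal transporter of macrophage phagosomes, were listed as lower at 1 probe set each (2.44-fold, and 2.46-fold with shERRα values near background), and their run medians overlapped between the groups (changes -0.13 and 0.03). Leaving out shERRα replicate 1 gave run changes of -0.13 and -0.48. SLC39A12, a zinc importer of the brain, was the only metal carrier listed as higher (2.08-fold), from control values of 0.90 to 1.29 log2 units, which lie near background.

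**Figure D4:**
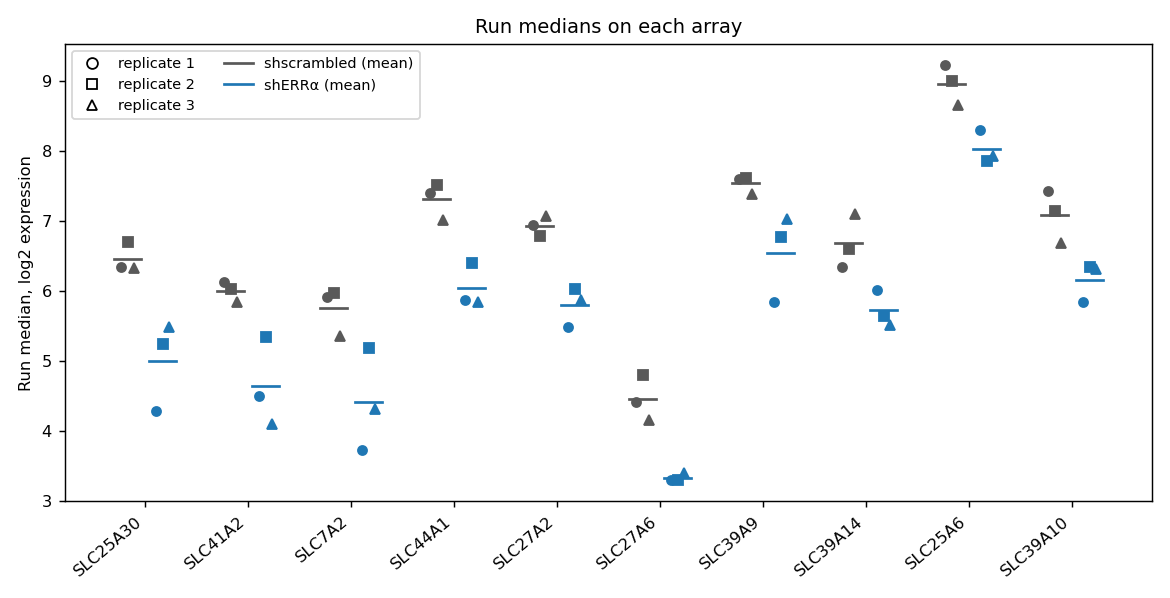
Run median of each of the 6 arrays (symbols by replicate, grey shscrambled, blue shERRα, lines for the group means) for the 10 carriers with the largest run change. In all 10 every shERRα array lies below every control array, and shERRα replicate 1 is the lowest of its group for SLC25A30, SLC7A2, SLC27A2, SLC39A9 and SLC39A10.

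Amino acid and peptide carriers were listed in both directions, 5 lower and 3 higher. SLC7A2, a carrier of arginine, lysine and ornithine, had run medians of 5.92, 5.97 and 5.36 log2 units on the shscrambled arrays and 3.73, 5.19 and 4.32 on the shERRα arrays, -1.34 log2 units on average (SE 0.46). Its groups did not overlap, although shERRα replicate 2 lay only 0.18 log2 units under the lowest control array. SLC7A8, a carrier of large neutral amino acids, was 2.65-fold lower at 2 listed probe sets (6.94, 6.51 and 6.26 with the scrambled shRNA against 5.13, 5.33 and 5.03 with shERRα). Its run medians overlapped, at 5.44, 5.78 and 5.17 with the scrambled shRNA against 4.90, 5.31 and 4.34 with shERRα, with 12 of 15 unlisted probe sets lower. SLC43A2, another carrier of large neutral amino acids, was 2.74-fold lower at 2 listed probe sets, and its run gave 4.83, 4.76 and 5.02 with the scrambled shRNA against 4.31, 4.47 and 4.02 with shERRα without overlap (change -0.60, SE 0.15). Its probe sets were not uniform: 8 of 14 unlisted ones were lower, with a median change of -0.16. In the run 4 probe sets were lower without overlap and 2 higher. The glutamine carrier SLC38A3 was 2.39-fold lower with a run change of -0.88 (SE 0.16), and SLC7A6, which exchanges cationic for neutral amino acids, 2.29-fold lower with overlapping run medians (change -0.25).

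The 3 higher members of this group had low levels. SLC15A3, a lysosomal carrier of histidine and short peptides, read 2.58, 2.27 and 1.75 log2 units on the shscrambled arrays and 4.87, 3.80 and 5.07 on the shERRα arrays, a 5.21-fold difference that starts near background. Its run was higher as well without overlap, at 3.18, 2.81 and 3.03 with the scrambled shRNA against 3.96, 3.94 and 3.24 with shERRα (change 0.70, SE 0.26). Of its 7 unlisted probe sets 6 were higher, but the median of their changes was 0.06. Only 1 of the 8 probe sets of the run was higher without overlap. The GABA carrier SLC6A13 (2.53-fold) and the glutamate carrier SLC1A6 (2.29-fold), both best known from the nervous system, had overlapping run medians with changes of 0.47 and 0.04. With shERRα replicate 1 left out, their run changes were 0.26 and -0.18.

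Of the carriers of inorganic ions 6 were listed as lower and 2 as higher. SLC41A2, a magnesium transporter, had run medians of 6.12, 6.02 and 5.84 log2 units on the shscrambled arrays and 4.50, 5.34 and 4.10 on the shERRα arrays, -1.35 log2 units on average (SE 0.38). Its listed probe set was near background with shERRα, but all 10 unlisted probe sets were lower. The sodium-proton exchanger SLC9A7 of the Golgi was 2.01-fold lower with a run change of -0.64 (SE 0.29) without overlap. Its endosomal relative SLC9A9 had the largest listed change of this group, 5.38-fold from 2.67, 3.73 and 3.75 with the scrambled shRNA against 0.24, 1.26 and 1.38 with shERRα. The shERRα values lie near background and the run medians overlapped.

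The chloride and bicarbonate carriers were dim and did not share a direction. SLC26A9 was 2.69-fold lower at 2 listed probe sets (2.77, 3.39 and 2.74 with the scrambled shRNA against 1.54, 1.47 and 1.61 with shERRα), with overlapping run medians of 2.67, 1.53 and 2.54 with the scrambled shRNA against 2.47, 1.96 and 2.34 with shERRα. SLC4A9 was 4.37-fold lower at 1 listed probe set that was near background with shERRα, and its run differed by -0.18. SLC26A3, the chloride-bicarbonate exchanger of colon epithelium, and SLC26A8, known from sperm, were 2.05-fold and 2.62-fold higher at 1 probe set each, from control values of 0.69 to 1.38 log2 units. The run of SLC26A8 was higher without overlap (change 0.52, SE 0.12), and that of SLC26A3 overlapped (change 0.14). With shERRα replicate 1 left out, these run changes were 0.45 and -0.17.

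Both vitamin carriers were lower. SLC19A2, a thiamine carrier, was 2.41-fold lower at 2 listed probe sets (6.85 ± 0.16 against 5.58 ± 0.10 log2 units, SD, n = 3), and its run gave 4.87, 5.44 and 5.21 with the scrambled shRNA against 4.40, 4.36 and 4.30 with shERRα (change -0.81, SE 0.17). SLC23A2, which takes up ascorbate with sodium, was 5.31-fold lower at 1 probe set (5.64, 5.84 and 5.62 with the scrambled shRNA against 2.47, 4.18 and 3.23 with shERRα), with the 3 shERRα arrays spread over 1.71 log2 units. Its run was lower without overlap (change -0.85, SE 0.24), and 13 of 21 unlisted probe sets were lower, with a median change of -0.31. The listed probe set had shared values, as described below, and only 2 of the 22 probe sets of the run did not.

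Among the carriers of sugars and of organic ions 1 run, that of SLC45A1, was lower without overlap. SLC45A1, a proton-coupled sugar carrier of the brain, was 3.13-fold lower at its listed probe set (4.93, 5.25 and 5.05 with the scrambled shRNA against 3.45, 3.79 and 3.05 with shERRα), and its run of 5 probe sets differed by -0.75 (SE 0.20), with 4 of 4 unlisted probe sets lower. The insulin-responsive glucose carrier SLC2A4 was 2.06-fold lower at 1 probe set, while its run median differed by -0.03 (SE 0.20) and 4 of 14 unlisted probe sets were lower. SLC2A14, a near-copy of SLC2A3, so that signal from both genes may not be told apart, was 2.34-fold lower at a probe set near background, and its run medians overlapped. Of the organic ion carriers, SLC22A25 was 2.01-fold lower with shERRα values near background, while the citrate carrier SLC13A5 (2.49-fold) and the renal organic anion carrier SLC22A6 (2.23-fold) were higher. The run changes of these 3 genes lay between 0.02 and 0.14 log2 units. Leaving out shERRα replicate 1 gave -0.42 for SLC22A25, -0.04 for SLC13A5 and -0.07 for SLC22A6.

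Families with several members did not always share a direction. Of the 10 families with at least 2 listed members, 3 held both directions: SLC22, SLC26 and SLC39. In SLC22 and SLC26 every listed member had a run level under 4 log2 units. In SLC39 the 4 lower members had run levels of 4.51 to 7.04 log2 units and the higher member, SLC39A12, of 1.52.

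Many values on these arrays are shared exactly by unrelated probe sets. Of all probe sets, 45.1% carried, on each of the 6 arrays, a value that at least 10 probe sets had on that array, and so did 28 of the 62 distinct listed carrier probe sets (45.2%). The listing of 15 of the 35 lower carriers and 6 of the 8 higher carriers rested on such probe sets alone. Among these lower carriers were SLC44A4, SLC9A9, SLC23A2 and SLC4A9, which had large listed folds. When runs were reduced to their other probe sets, 35 carriers kept at least 3, and 29 of them were lower, with a median change of -0.76 log2 units (all runs 49.4% lower, median 0.00488). All 21 carriers with a non-overlapping lower run that could be reduced in this way were still lower. They were picked for a lower run, and the reduced run is a part or all of it, so this outcome was largely fixed. This measure was added after the values were seen.

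Transporters of these families that do not carry an SLC symbol were listed in the same comparison in 10 of 45 cases, 7 lower and 3 higher, beside 65% lower among all genes listed in 1 direction and 0.828% of all probe sets listed. A gene has many probe sets, so the share of probe sets is not a share of genes, and nothing particular to these lists is read from their counts. The lower ones were the heme exporter FLVCR1 (6.91-fold, run -0.77), the magnesium transporters NIPA1 (3.31-fold at 2 probe sets, run -0.57), NIPAL1 (run -0.73), NIPAL2 (run -0.51) and NIPAL3 (3.77-fold at 2 probe sets, run -1.20), and the organic anion carriers SLCO3A1 (run -1.01) and SLCO4A1 (run -0.75). SLCO1B1, SLCO1B3 and the uncoupling protein UCP3 were listed as higher, each at 1 probe set, with run differences of 0.17, 0.05 and 0.68. Among 20 partners and regulators of carriers 3 were listed. ATP1B1, a subunit of the sodium pump whose gradient drives many carriers, was lower (2.39-fold, run -0.71), as was the arrestin ARRDC4, which limits glucose uptake (9.07-fold, run -2.36), while the kinase SGK1, which raises the surface level of several carriers, was higher (3.45-fold, run 1.11). Of 20 amino acid response genes 5 were listed, all lower: CTH, DDIT3, GOT1, GPT2 and STC2, with run differences of -2.30, -1.29, -1.43, -0.61 and -0.89. These lists were chosen with earlier results known, and only listed probe sets carry names, so a gene that was not listed has no value here.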

How the data were processed

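Values came from 6 arrays, 3 per group, grouped and numbered by the sample titles. The authors made the log2 values with RMA, per the submitters' processing notes, with version and annotation not given in the sources used here. Decimal marks are missing from the deposited log2 table and were restored: a 7-digit string was taken as 10 or more and a shorter one as under 10, except that for 90472 values (5.86%) open to both readings the one nearer to the probe set's other values was taken, with 1269 undecided probe sets left out. In 159 probe sets all values were open to both readings, and these were read as under 10. For 12 listed probe sets the reading that returned the deposited fold change was taken. So read, the table returned each of the 2122 deposited fold changes to 0.001 log2 units and each deposited p-value to 1%. For those 12 the match of the fold change was fixed by the choice. The authors' deposited comparison holds the ratio (fold change) and the p-value without adjustment.

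Carrier rows were named by accession (59) or symbol (6) through the RefSeq table of GRCh38.p14. Runs of at least 3 consecutive identifiers were summarised by their median. limma 3.58.1 in R 4.3.3 (lmFit, eBayes) was fitted over all probe sets and over all runs, with Benjamini-Hochberg adjustment at 0.05, and was tested on simulated data. SE is that of the difference of group means. Values per array are given for carriers with 2 or more distinct listed probe sets, the 10 largest run differences and the largest listed difference of each substrate class, except 2 carriers that are counted but not reported by name here, and for SLC25A26 and SLC11A2, chosen after their values were seen. Members, lists and classes were chosen with earlier results of these data known. The number of arrays limits the precision. The alternatives tried were a replicate block, each array left out, quantile normalisation, centring, a filter on dim probe sets, undecided probe sets kept, means over runs, array weights, unlisted probe sets alone and an equal-variance test.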

Additional observations from a re-analysis of the deposited data

How the results depend on the processing

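limma called 0 probe sets in each setting run over them. At an unadjusted p under 0.05 in limma the main setting gave 6962 higher and 11577 lower. Over the settings these counts ran from 5186 to 9139 higher and from 7054 to 13199 lower. An equal-variance test with Benjamini-Hochberg adjustment called 0 on all arrays, and 1 and 2 in a pair of settings with an array left out. Over runs limma called 0 higher and 0 lower, and leaving out an array gave 0 to 1 higher and 0 to 2 lower. The filter on dim probe sets gave 2 higher, and array weights (0.323 for shERRα replicate 1 over runs) 24 higher and 54 lower, with 0 carriers. The mean over a run gave 25 higher and 132 lower of 19182 runs. Of the 132 lower ones 6 were carriers, which were chosen by this same contrast, so nothing is read from that count. Under the deposited rule 695 probe sets were higher and 1427 lower. With the replicate block these were 392 and 675, and leaving out an array gave 513 to 906 higher and 775 to 1705 lower.

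Within the carrier runs the rule gave 8 higher and 54 lower, with the replicate block 2 and 18. Leaving out an array gave 2 to 8 higher and 20 to 40 lower: 25 lower without shscrambled replicate 1, 20 without replicate 2 and 30 without replicate 3 of that group, and 30, 40 and 28 without shERRα replicates 1, 2 and 3. The cause was not tested. The dim filter left 4 higher. Same-numbered arrays correlated at 0.068, 0.048 and 0.084 in their deviations, each best with its own number, which is a hint from the data alone. None was over 0.1, so the numbers were not taken as pairs.

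The median run change over the 43 carriers was -0.60; it was -0.47 over unlisted probe sets alone and -0.76 over probe sets without shared values (35 carriers, added after the values were seen). Between 29 and 38 of the 43 runs were lower when an array was left out, and 30 with quantile normalisation or centring, which moved the median of all runs from 0.00 to 0.05 and 0.06. Of 832 values of single carriers recomputed, for listed probe sets and for the 25 non-overlapping runs, 0 changed direction and 18 moved by more than the spread between replicates. The direction of listed probe sets was fixed by their choice. A non-overlapping run keeps its direction whichever array is left out, so the absence of reversals is no test for these runs either. Runs whose groups overlapped were not among these values.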
